A study of Mus musculus with 4 samples.

Results

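The glycolysis genes described here are 38 mouse genes that encode glucose and lactate transporters, the enzymes of each step from glucose to lactate, the enzymes that set the level of fructose 2,6-bisphosphate, the pyruvate dehydrogenase E1 subunits with their kinases, and Hif1a. They were chosen by name, and all 38 symbols were found among the 24421 genes of the count tables. Of these, 37 had a count in at least 1 library, and 36 averaged at least 5 normalized counts. Slc2a2, the low-affinity glucose transporter of liver and pancreatic islets, had 0 counts in every library, where 3 counts correspond to between 0.0629 and 0.0935 CPM, the count scaled to the total of the library. Eno1 had at most 2 counts in any library. A normalized count is the number of fragments on a gene, scaled by the TMM method to a common library size. The summed CPM values given below were scaled to library sizes adjusted by TMM, in place of the totals.

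RNA of R1, an established line of mouse embryonic stem cells (ESCs), was sequenced with Illumina TruSeq in 2 states, with 2 replicate libraries of Undiff and 2 of Day4. The labels describe Undiff as embryoid bodies, which are aggregates of ESCs, grown for 4 days in serum-containing growth medium, whereas the methods of the study describe it as ESCs maintained with leukaemia inhibitory factor (LIF). Day4 was embryoid bodies that had been kept for 4 days without LIF and then treated for 4 days with retinoic acid (RA). The RA dose was 2 µM in the design text and 2 mM in the treatment label. RA, the absence of LIF, time in culture and, by the methods, growth as embryoid bodies therefore differ together between the states. They cannot be told apart, and both states come from 1 cell line.

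Glycolysis splits glucose into pyruvate in the cytosol and yields ATP without oxygen. Several steps are run by isoenzymes from separate genes, which differ in their affinity and in how they are regulated, and pyruvate is then reduced to lactate and exported, or oxidised in mitochondria by the pyruvate dehydrogenase complex, which its kinases switch off. Pluripotent stem cells are known for a high rate of glycolysis, and many genes of the pathway are known targets of the hypoxia-inducible factors (HIF) and of Myc.

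Counts on genes ranged from 32099074 to 47730944 per library. The state markers went with the labels: all 8 genes of a pluripotency list were lower in Day4, with a summed level of 4640 to 4682 CPM in Undiff and 20.5 to 25.6 CPM in Day4, and all 6 genes of an RA response list were higher. Tdgf1 was the highest pluripotency gene in Undiff and Klf4 in Day4, and Dhrs3 was the highest RA response gene in Day4. The share of fragments assigned to no gene was 12.1% and 13.2% in Undiff and 7.50% and 7.74% in Day4. The glycolysis genes as a group differed between the 2 Undiff libraries. Replicate 1 was above replicate 2 for 31 of the 36 genes, with a median log2 ratio of 0.15, compared with 3423 of 7287 high-level genes (mean of at least 1000 normalized counts) and a median of -0.01. Between the Day4 libraries the median log2 ratio of the 36 genes was 0.01.

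Transcripts of the pathway were lower in Day4 as a group, and the isoenzymes of single steps went in both directions. The 38 genes together took 1.94% and 1.69% of all counts in Undiff and 1.07% and 1.05% in Day4. Scaled by TMM, their sum was 19785 and 17306 CPM in Undiff and 10405 and 10319 CPM in Day4, a log2 ratio of -0.84. The states did not overlap, and the gap was larger than the spread between the replicates. In a bulk sample, fewer cells that use a gene and less RNA per cell cannot be told apart.

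**Figure D1:**
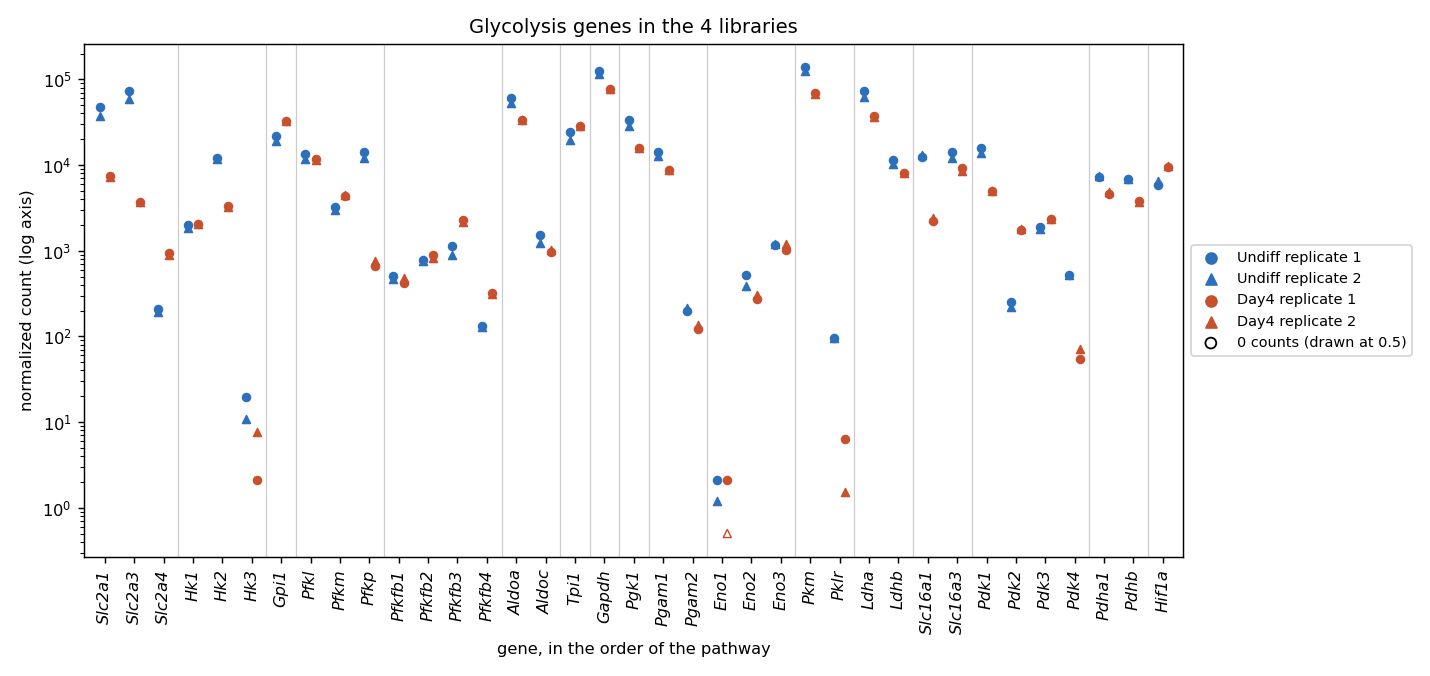
Normalized counts (log axis) of the 37 glycolysis genes with a count, in the order of the pathway, with 1 point per library; circles are replicate 1, triangles replicate 2, blue Undiff and red Day4, and the open symbol is a library with 0 counts. Slc2a3 lies between 59520 and 72868 in Undiff and between 3688 and 3737 in Day4, while Pdk2 lies between 223 and 252 in Undiff and between 1755 and 1792 in Day4.

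Differentially expressed genes (DEGs) were called where the edgeR adjusted p-value did not exceed 0.05, the fold change reached 2 and the mean reached 5 normalized counts. Of the 37 genes tested, 13 were DEGs (35.1%), compared with 42.8% of all 19891 genes tested and 51.7% of those that reached this mean. The 4 that were higher in Day4 were Slc2a4, Pfkfb3, Pfkfb4 and Pdk2, where the background is 22.2% of all genes and 26.8% of those that reached the mean. The 9 that were lower were Slc2a1, Slc2a3, Hk2, Hk3, Pfkp, Pklr, Slc16a1, Pdk1 and Pdk4, where the background is 20.6% and 24.9%. Among the high-level genes, a level that most of the pathway reaches, 20.3% were DEGs higher and 16.0% DEGs lower in Day4. At any fold change, 31 genes passed an adjusted p of 0.05, 9 of them higher and 22 lower in Day4, beside a background of 75.6% of all genes, 37.9% higher and 37.7% lower. The median log2 fold change of the 36 genes was -0.63, and that of all genes averaging at least 5 normalized counts was 0.03. Undiff and Day4 values did not overlap for 33 of the 36 genes, which is close to the background of 93.6%. The share of DEGs was thus not above the background, and the direction was more often lower. A minimum log2 fold change of 0.5 in place of 1 gave 27 DEGs, 7 higher and 20 lower, since many genes of the pathway lay between the limits.

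**Figure D2:**
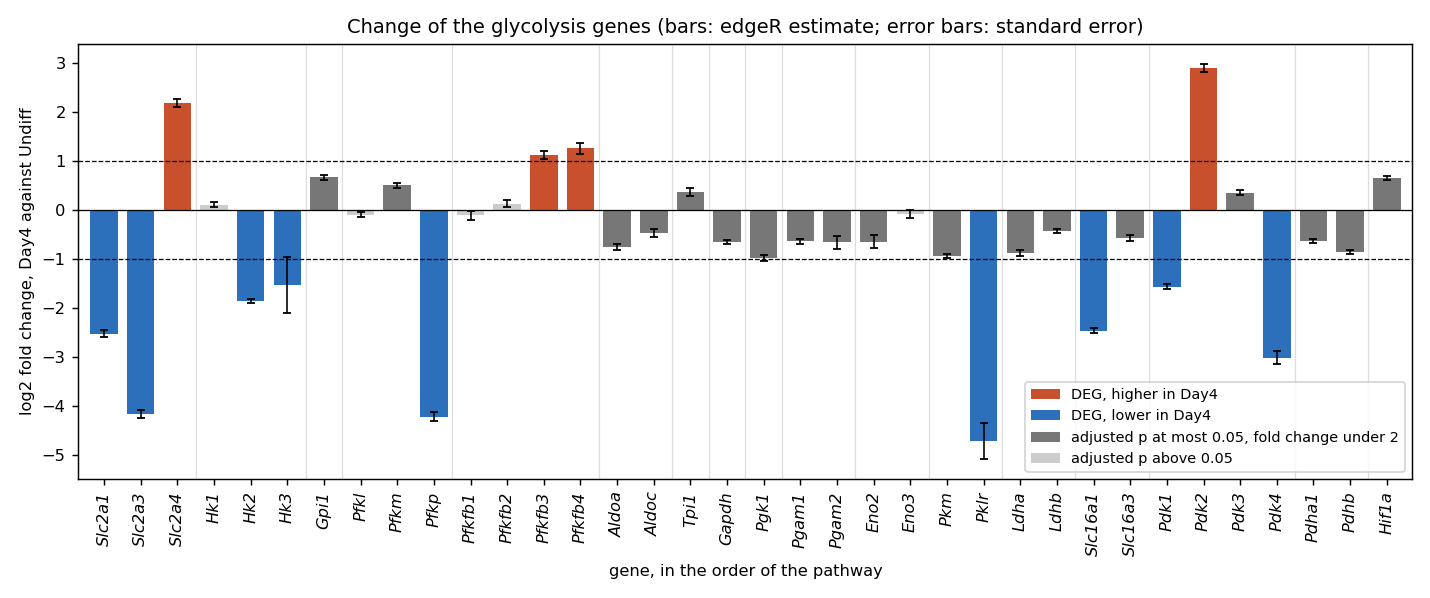
Log2 fold change of Day4 against Undiff for 36 glycolysis genes, from Slc2a1 at the left to Hif1a at the right; bars are the edgeR estimates from 2 libraries per state, error bars their standard errors, and dashed lines mark a fold change of 2. The lowest bar is Pklr at -4.71 and the highest is Pdk2 at 2.90.

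The promoters of genes that changed are shown because HIF and Myc family factors bind short motifs that can be read in the sequence. In the RefSeq promoter windows (GRCm38.p6), the 250 bases before the start were searched on both strands for ACGTG, the core of many HIF response elements, for GCGTG, the other form of that core, and for CACGTG, the E-box of Myc, which contains ACGTG. A window was found for 36 of the 38 genes, and Slc2a3 and Slc2a4 had none. A gene with several windows was counted where any of them held the motif. ACGTG was present for 17 of the 36 (47.2%), compared with 20.2% of all 17224 genes with a window and 27.4% of the 5665 high-level genes among these. GCGTG was present for 22 (61.1%), compared with 37.3% and 54.4%, and CACGTG for 7 (19.4%), compared with 7.80% and 11.1%. Of the 11 DEGs with a window, 6 held ACGTG and 7 held GCGTG. These are matches of letters, not sites of binding. In the windows below, 5' to 3' on the strand of the gene, capitals mark the ACGTG and GCGTG matches on either strand (CACGT and CACGC on the printed one). Slc2a1, Hk2, Pfkp, Slc16a1 and Pdk2 are DEGs of separate steps, and Ldha, which was not a DEG, is the leading gene of the step to lactate. The windows shown are thus not a fair sample of the 36. Ldhb, of the same step as Ldha, held no ACGTG and 1 GCGTG, and Gpi1 and Tpi1 held neither core. Ldha and Pdk2 have 2 windows each, and the window with the most ACGTG and GCGTG matches is shown. Of the DEGs with a window that are not shown, Pklr held neither core, and each of the others held at least 1 match.
Slc2a1, chr4:119108495.0-119108744.0, plus strand: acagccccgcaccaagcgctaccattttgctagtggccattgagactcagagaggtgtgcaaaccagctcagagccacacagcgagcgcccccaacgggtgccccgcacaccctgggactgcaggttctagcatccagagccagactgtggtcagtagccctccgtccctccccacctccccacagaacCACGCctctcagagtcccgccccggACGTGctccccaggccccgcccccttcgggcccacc
Hk2, chr6:82774455.0-82774704.0, minus strand: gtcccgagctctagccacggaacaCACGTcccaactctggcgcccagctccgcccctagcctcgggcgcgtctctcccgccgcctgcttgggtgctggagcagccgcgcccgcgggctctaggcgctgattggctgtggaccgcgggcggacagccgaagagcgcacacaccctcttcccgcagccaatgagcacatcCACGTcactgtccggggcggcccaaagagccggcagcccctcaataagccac
Pfkp, chr13:6648772.0-6649021.0, minus strand: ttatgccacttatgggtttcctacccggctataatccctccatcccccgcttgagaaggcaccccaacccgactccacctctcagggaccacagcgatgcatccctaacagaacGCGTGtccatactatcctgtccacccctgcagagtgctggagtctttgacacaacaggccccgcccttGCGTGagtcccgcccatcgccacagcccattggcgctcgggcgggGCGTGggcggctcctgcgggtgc
Ldha, chr7:46845554.0-46845803.0, plus strand: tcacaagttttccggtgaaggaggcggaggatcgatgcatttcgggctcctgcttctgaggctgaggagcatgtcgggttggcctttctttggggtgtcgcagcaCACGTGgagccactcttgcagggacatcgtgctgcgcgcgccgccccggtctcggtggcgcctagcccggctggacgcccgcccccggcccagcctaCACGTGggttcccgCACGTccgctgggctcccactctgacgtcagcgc
Slc16a1, chr3:104638414.0-104638663.0, plus strand: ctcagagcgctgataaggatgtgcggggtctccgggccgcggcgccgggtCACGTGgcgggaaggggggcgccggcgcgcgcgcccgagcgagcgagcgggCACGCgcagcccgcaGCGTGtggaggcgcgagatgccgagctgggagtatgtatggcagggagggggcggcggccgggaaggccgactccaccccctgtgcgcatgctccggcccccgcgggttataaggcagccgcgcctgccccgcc
Pdk2, chr11:95041372.0-95041621.0, minus strand: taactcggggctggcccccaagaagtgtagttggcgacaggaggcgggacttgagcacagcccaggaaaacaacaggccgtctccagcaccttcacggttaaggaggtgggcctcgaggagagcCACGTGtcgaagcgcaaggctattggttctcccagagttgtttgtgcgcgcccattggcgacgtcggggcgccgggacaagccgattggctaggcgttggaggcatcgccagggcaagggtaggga
Hk2 held 2 matches of ACGTG and none of GCGTG, whereas Pfkp held 3 of GCGTG and none of ACGTG. Slc2a1 held 1 match of each. Ldha held 5 matches of ACGTG, counted on both strands so that each CACGTG counts on either, and this window belongs to a start inside the annotated gene. Both Slc16a1, which was lower in Day4, and Pdk2, which was higher, held a CACGTG.

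Glucose enters through transporters of the Slc2a family, and this step had the largest change in sum, from 2907 CPM ± 441 (SD, n = 2) in Undiff to 320.9 CPM ± 3.40 (SD, n = 2) in Day4, a ratio of 9.06. Slc2a3 encodes GLUT3, a high-affinity transporter of neurons and early embryos, and lies on the minus strand at chr6:122727809-122801640 (GENCODE vM21, GRCm38). It had 72868 and 59520 normalized counts in Undiff and 3688 and 3737 in Day4. All Undiff values were far above the Day4 values, 17.8-fold on the fitted scale (log2 fold change -4.16 ± 0.08 SE, edgeR adjusted p = 3.4e-14). Slc2a1 encodes GLUT1, the transporter of most growing cells (chr4:119108711-119137983, plus strand), and had 47428 and 37443 normalized counts in Undiff and 7473 and 7299 in Day4. It fell by 2.52 on the log2 scale (SE 0.08, edgeR adjusted p = 5.8e-12), and the states did not overlap.

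Slc2a4 went the other way. It encodes GLUT4, the transporter that insulin brings to the surface of muscle and fat cells (chr11:69942539-69948188, minus strand), and had 208 and 193 normalized counts in Undiff and 941 and 886 in Day4. It was 4.53-fold higher in Day4 (log2 fold change 2.18 ± 0.09 SE, edgeR adjusted p = 4.6e-11). Of a list of 8 striated muscle genes, 3 were higher and 4 lower in Day4, with a summed level of 34.9 to 37.5 CPM in Undiff and 27.7 to 28.8 CPM in Day4. Myh6 was the highest of these in Undiff and Tnni1 in Day4, and Ckm was at the floor of 3 counts or fewer in both Day4 libraries. The part of muscle cells in the level of Slc2a4 was not tested.

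To compare isoenzymes with each other, counts were divided by the length of the exons and given as a share of the family, in counts per kilobase. Slc2a1 made up 56.8% ± 0.605 (SD, n = 2) of the 3 detected glucose transporters in Undiff and 73.1% ± 0.164 in Day4. The share of Slc2a3 was 42.9% ± 0.577 in Undiff and 17.8% ± 0.422 in Day4, and that of Slc2a4 was 0.273% ± 0.0275 and 9.11% ± 0.258. Each shift was larger than the spread between replicates (p = 0.333 in a two-sided exact permutation test, which cannot go lower with 2 libraries against 2). Slc2a1 led in Day4 by any length. In Undiff its lead over Slc2a3 depended on the length of Slc2a3: with the longest protein-coding transcripts, an alternative added after seeing the data, Slc2a1 made up 43.6% and Slc2a3 56.1% in Undiff.

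Hexokinases trap glucose in the cell as glucose 6-phosphate. Hk2, the inducible isoenzyme of growing cells and of muscle (chr6:82725025-82774454, minus strand), had 11954 and 11764 normalized counts in Undiff and 3334 and 3232 in Day4. The Day4 values were all lower, by 3.61-fold (log2 fold change -1.85 ± 0.04 SE, edgeR adjusted p = 2e-13). Hk1, the housekeeping isoenzyme (chr10:62268855-62379908, minus strand), had 1970 and 1828 normalized counts in Undiff and 2067 and 2050 in Day4. Its difference did not pass the test (log2 fold change 0.11 ± 0.05 SE, edgeR adjusted p = 0.073), although the ranges did not overlap. The share of Hk1 in the family per length was 10.1% ± 0.366 (SD, n = 2) in Undiff and 30.4% ± 0.297 in Day4, and Hk2 remained the leading isoenzyme with 89.8% ± 0.441 and 69.4% ± 0.435. These shares depended on the length, although Hk2 led by any length. With the longest transcript, Hk1 had 17.1% in Undiff and 44.6% in Day4, and Hk2 had 82.7% and 55.2%.

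Hk3, a hexokinase of blood cells (chr13:55005985-55021385, minus strand), had 19 and 9 raw counts in Undiff and 2 and 10 in Day4. Scaled, these were 19.8 and 10.8 normalized counts in Undiff and 2.09 and 7.68 in Day4, so that the ranges came close. It passed the thresholds (log2 fold change -1.53 ± 0.58 SE, edgeR adjusted p = 0.028), but not with DESeq2 (adjusted p = 0.14), with the libraries thinned to the smallest total (adjusted p = 0.072), without Undiff replicate 1 (adjusted p = 0.23) or without Day4 replicate 1 (adjusted p = 0.13).

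Gpi1, glucose-6-phosphate isomerase, is a step with 1 gene (chr7:34201330-34230336, minus strand). It had 21824 and 18983 normalized counts in Undiff and 32697 and 32239 in Day4, the reverse of most of the pathway. Its log2 fold change was 0.67 ± 0.05 (SE, edgeR adjusted p = 6.7e-08), higher in both Day4 libraries and below a fold change of 2.

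Phosphofructokinase 1 carries out the committed step and is a tetramer of liver, muscle and platelet type subunits. Pfkp, the platelet type (chr13:6579768-6648777, minus strand), had 14356 and 12240 normalized counts in Undiff and 656 and 767 in Day4. It was 18.6-fold lower (log2 fold change -4.22 ± 0.09 SE, edgeR adjusted p = 5.7e-14), with no overlap. Pfkl, the liver type (chr10:77986947-78010083, minus strand), had 13289 and 11727 normalized counts in Undiff and 11824 and 11461 in Day4. Here the ranges overlapped, and the test was not passed (log2 fold change -0.10 ± 0.05 SE, edgeR adjusted p = 0.093), whereas DESeq2 gave an adjusted p of 0.026 at a log2 fold change of -0.14. Pfkm, the muscle type, had 3257 and 3002 normalized counts in Undiff and 4365 and 4496 in Day4 (log2 fold change 0.50 ± 0.05 SE, edgeR adjusted p = 7.9e-07).

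Per length, the make-up of the subunits moved from 49.3% Pfkl, 24.7% Pfkm and 26.1% Pfkp in Undiff to 55.8%, 42.5% and 1.70% in Day4, with SDs of at most 1.14 percentage points (n = 2 per state). With the longest protein-coding transcripts the share of Pfkp was 41.9% in Undiff and 3.55% in Day4. All 3 shifts had an exact two-sided permutation p of 0.333, the smallest possible. The summed level of the step was 772.9 CPM ± 74.3 (SD, n = 2) in Undiff and 448.3 CPM ± 2.29 in Day4.

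**Figure D3:**
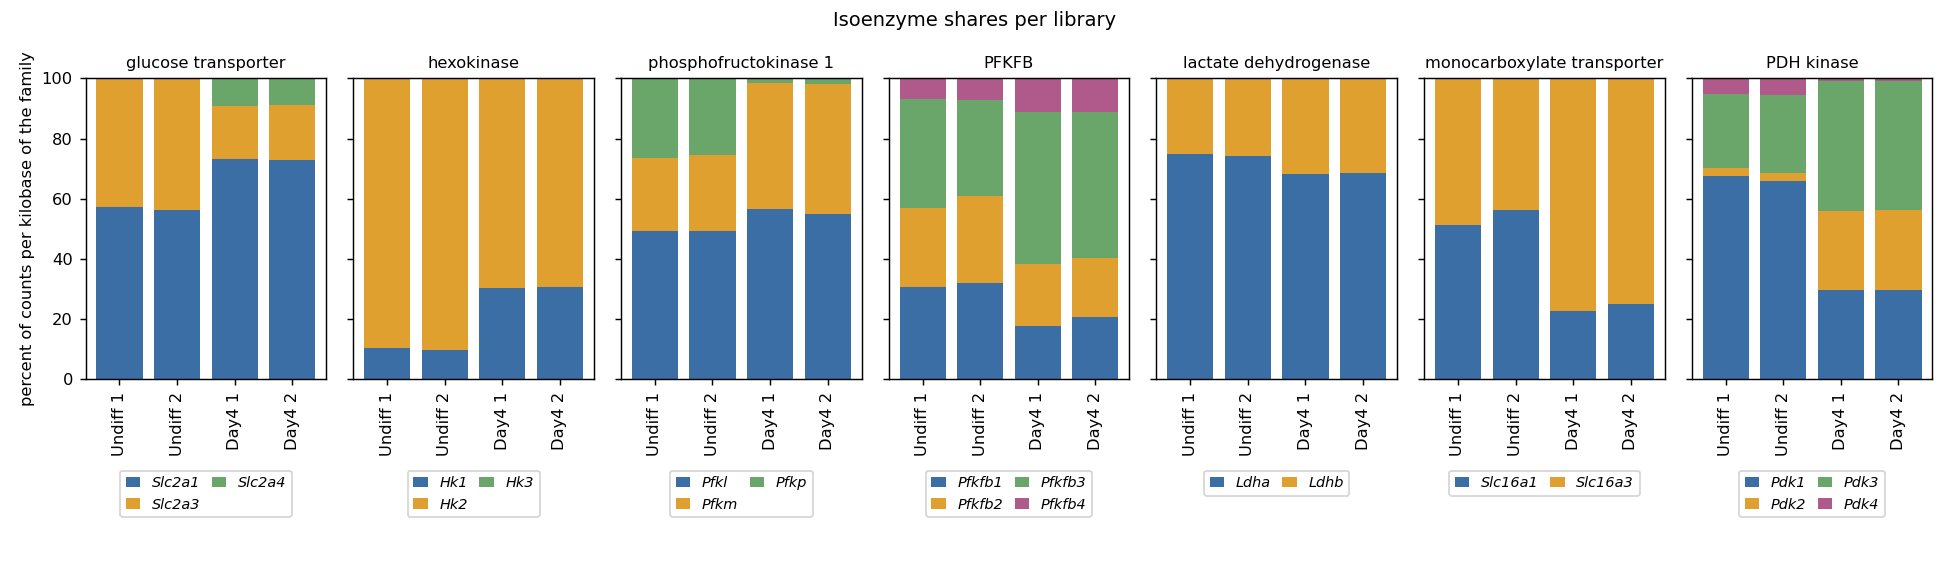
Share of each isoenzyme in the counts per kilobase of its family, in percent, with 1 stacked bar for each of the 4 libraries and 1 panel per family. Pfkp shrinks from 26.5% and 25.6% in Undiff to 1.57% and 1.83% in Day4, and Pdk2 grows from 2.68% and 2.61% to 26.1% and 26.4%; Hk3 is too low to be seen.

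The Pfkfb enzymes make and break down fructose 2,6-bisphosphate, the strongest activator of phosphofructokinase 1. Pfkfb3, a hypoxia-responsive isoenzyme with high kinase activity (chr2:11471433-11554077, minus strand), had 1128 and 884 normalized counts in Undiff and 2269 and 2136 in Day4. It was 2.18-fold higher in Day4 (log2 fold change 1.12 ± 0.09 SE, edgeR adjusted p = 4.1e-08), and without Undiff replicate 2 its log2 fold change was 0.96, under the limit. Pfkfb4 (chr9:108991778-109032228, plus strand) had 132 and 130 normalized counts in Undiff and 319 and 311 in Day4. The replicates lay close together, and the gene was 2.39-fold higher in Day4 (log2 fold change 1.26 ± 0.11 SE, edgeR adjusted p = 2.3e-07). The other 2 did not pass the test: Pfkfb1 had 504 and 471 normalized counts in Undiff and 417 and 480 in Day4 (edgeR adjusted p = 0.27), and Pfkfb2, the heart isoenzyme, had 783 and 768 in Undiff and 884 and 824 in Day4 (edgeR adjusted p = 0.09). Per length, Pfkfb3 made up 34.1% ± 3.20 (SD, n = 2) of the family in Undiff and 49.8% ± 1.42 in Day4. It led in Day4 by any length, while in Undiff it did not differ from Pfkfb1, at 31.3% ± 0.945, beyond the spread. The order in Undiff depended on the length. With the longest protein-coding transcripts, Pfkfb1 made up 38.2% and Pfkfb3 30.6% in Undiff. In raw counts, Pfkfb1 made up 20.4% and Pfkfb3 41.7%. The sum of the family was 64.1 CPM ± 5.53 in Undiff and 102.0 CPM ± 2.60 in Day4, a ratio of 1.59, while the sum of phosphofructokinase 1 was lower in Day4.

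The middle and lower steps of the pathway cut the sugar into trioses and harvest ATP. Aldoa, the main aldolase (chr7:126795234-126800751, minus strand), had 61208 and 52279 normalized counts in Undiff and 33121 and 33940 in Day4 (log2 fold change -0.76 ± 0.06 SE, edgeR adjusted p = 3.6e-08). It made up 97.9% ± 0.0924 (SD, n = 2) of the family per length in Undiff and 97.4% ± 0.0490 in Day4. Aldoc, the brain type, had a log2 fold change of -0.47 ± 0.09 (SE, edgeR adjusted p = 0.00025). Tpi1, triosephosphate isomerase (chr6:124810586-124814296, minus strand), had 24586 and 19504 normalized counts in Undiff and 28917 and 28208 in Day4. With Gpi1 it was the other step of the core pathway that was higher in Day4 (log2 fold change 0.37 ± 0.08 SE, edgeR adjusted p = 0.00055), and its Undiff replicates stood farther apart than its Day4 replicates. Its adjusted p was 0.061 with DESeq2 and 0.06 with the libraries thinned to the smallest total, above 0.05.

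Gapdh, the dehydrogenase that is often used to normalize other transcripts (chr6:125161715-125166467, minus strand), had 126537 and 114303 normalized counts in Undiff and 77614 and 76380 in Day4. It was lower in both Day4 libraries, by 1.56-fold (log2 fold change -0.65 ± 0.04 SE, edgeR adjusted p = 1.1e-08). Pgk1, phosphoglycerate kinase (chrX:106187100-106203699, plus strand), had 33587 and 28237 normalized counts in Undiff and 15667 and 15649 in Day4. Its log2 fold change of -0.98 ± 0.06 (SE, edgeR adjusted p = 5.5e-09) lay just inside a fold change of 2, and it was a DEG with DESeq2 (-1.02). Pgam1, the main phosphoglycerate mutase, had 14175 and 12910 normalized counts in Undiff and 8780 and 8634 in Day4 (log2 fold change -0.64 ± 0.05 SE, edgeR adjusted p = 3e-08). Pgam2, the muscle type, moved alike (log2 fold change -0.66 ± 0.13 SE, edgeR adjusted p = 0.00041). The share of Pgam1 per length was 96.5% ± 0.396 (SD, n = 2) in Undiff and 96.6% ± 0.311 in Day4, within the spread of the replicates.

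For enolase, the counts do not give the level of the main isoenzyme. Eno1 (chr4:150236721-150248879, plus strand) had 2 and 1 raw counts in Undiff and 2 and 0 in Day4, at or under the floor in all libraries. Its longest protein-coding transcript shares 59.0% of its exact stretches of 100 bases with other annotated genes, 58.6% with Eno1b, a gene on chromosome 18. The authors counted uniquely aligned fragments. The rest of the stretches are not shared, and why Eno1 had so few counts was not tested. Eno1b, looked up after its values had been seen, had 11714 and 8932 raw counts in Undiff and 5007 and 6822 in Day4, which are 12207 and 10687 normalized counts in Undiff and 5230 and 5238 in Day4 (log2 fold change -1.13 ± 0.06 SE, edgeR adjusted p = 4.2e-10). Fragments of the 2 genes were not told apart here, and Eno1b is not among the 38 genes. Eno3, the muscle enolase, had 1157 and 1189 normalized counts in Undiff and 1006 and 1192 in Day4, with overlapping ranges (edgeR adjusted p = 0.32). Eno2, the neuronal enolase, had 519 and 389 normalized counts in Undiff and 271 and 308 in Day4 (log2 fold change -0.65 ± 0.13 SE, edgeR adjusted p = 0.0004).

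Pkm encodes the pyruvate kinase of most tissues (chr9:59656368-59679375, plus strand), and its splice forms are not told apart by counts per gene. It had 138270.0 and 123863 normalized counts in Undiff and 68464 and 67746 in Day4. The Day4 values were lower by 1.92-fold (log2 fold change -0.94 ± 0.05 SE, edgeR adjusted p = 2.8e-10), and without Undiff replicate 2 the log2 fold change was -1.02. Pklr, the pyruvate kinase of liver and red blood cells (chr3:89136142-89146784, plus strand), had 93 and 79 raw counts in Undiff and 6 and 2 in Day4. Its log2 fold change was -4.71 ± 0.37 (SE, edgeR adjusted p = 5.8e-08), from a gene with about 0.113% of the family per length in Undiff. With so few counts in Day4 the estimate was -5.86 without Day4 replicate 1 and -3.93 without Day4 replicate 2, where Pfkp, at -4.37, was lower. The summed level of 8 red blood cell genes was 7.91 to 8.02 CPM in Undiff and 124 to 151 CPM in Day4. Of this list, 5 genes were DEGs, all higher in Day4, while Klf1 and Gata1 did not pass the test (edgeR adjusted p = 0.52 and 0.083). Hba-x and Hbb-y, which are embryonic globins, were at the floor in both Undiff libraries, where Epor was the highest gene of that list. Hbb-y was the highest in Day4. The part of red blood cells in the level of Pklr was not tested.

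Similar copies also bear on the abundant genes of these steps. Of the exact stretches of 100 bases of the longest protein-coding transcript, 78.0% were shared with another annotated gene for Gapdh, 67.0% for Pgk1, 39.7% for Pgam1 and 6.82% for Pkm, mostly pseudogenes, and 0% for each of the DEGs among the 38 genes. Uniquely aligned fragments may therefore understate Gapdh, Pgk1 and Pgam1, and their levels are uncertain. Exons of Pfkp, Pklr and Hk3 overlap those of Pitrm1, Hcn3 and Unc5a on the opposite strand, and those of Gapdh, Tpi1, Aldoa, Pfkm, Pfkfb1, Pfkfb2, Hk1 and Pdha1 overlap those of other counted genes. The methods of the study name a strand-specific setting of the gene counting for direct RNA reads and none for TruSeq, and where strand is not used, such fragments cannot be told apart.

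Lactate dehydrogenase turns pyruvate into lactate and restores NAD+. Ldha, the muscle type subunit (chr7:46841475-46855627, plus strand), had 72611 and 62339 normalized counts in Undiff and 37007 and 36581 in Day4. It was lower in both Day4 libraries, by 1.83-fold (log2 fold change -0.88 ± 0.06 SE, edgeR adjusted p = 5.8e-09). Ldhb, the heart type subunit, had 11472 and 10290.0 normalized counts in Undiff and 8181 and 8026 in Day4 (log2 fold change -0.43 ± 0.05 SE, edgeR adjusted p = 3.9e-06). The share of Ldha per length was 74.6% ± 0.587 (SD, n = 2) in Undiff and 68.3% ± 0.116 in Day4, a shift of -6.31 percentage points.

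Lactate leaves the cell through monocarboxylate transporters. Slc16a1 encodes MCT1, the widely used form (chr3:104638668-104658462, plus strand), and had 12503 and 12961 normalized counts in Undiff and 2232 and 2389 in Day4. All Day4 values were lower, by 5.50-fold (log2 fold change -2.46 ± 0.05 SE, edgeR adjusted p = 4.5e-14). Slc16a3 encodes MCT4, the exporter of glycolytic cells (chr11:120948480-120960868, plus strand), and had 14320.0 and 12102 normalized counts in Undiff and 9120.0 and 8624 in Day4 (log2 fold change -0.58 ± 0.06 SE, edgeR adjusted p = 2.2e-06). Per length, Slc16a1 made up 53.7% ± 3.59 (SD, n = 2) of the pair in Undiff and 23.8% ± 1.59 in Day4, and Slc16a3 made up 46.3% and 76.2%. The shift was larger than the spread of the replicates (p = 0.333 in a two-sided exact permutation test, the smallest possible). Slc16a3 led in Day4 by any length, but which of the pair led in Undiff depended on the length: with the longest transcript, Slc16a1 had 46.1% and 51.2% in the Undiff libraries.

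The fate of pyruvate in mitochondria is set by pyruvate dehydrogenase and its kinases, which inactivate it. Pdk1, a kinase induced by hypoxia (chr2:71873224-71903858, plus strand), had 15604 and 13803 normalized counts in Undiff and 4932 and 4960.0 in Day4. It was 2.97-fold lower in Day4 (log2 fold change -1.57 ± 0.05 SE, edgeR adjusted p = 9.8e-12). Pdk2, the widely used kinase (chr11:95026258-95041354, minus strand), had 252 and 223 normalized counts in Undiff and 1755 and 1792 in Day4. This was the largest increase among the 36 genes, 7.45-fold (log2 fold change 2.90 ± 0.08 SE, edgeR adjusted p = 7.5e-13), with no overlap of the states. Pdk4, the kinase induced by fasting (chr6:5483351-5496309, minus strand), had 521 and 516 normalized counts in Undiff and 54.3 and 71.4 in Day4. It was 8.08-fold lower (log2 fold change -3.01 ± 0.13 SE, edgeR adjusted p = 6.9e-11). Pdk3 had 1902 and 1791 normalized counts in Undiff and 2356 and 2369 in Day4 (log2 fold change 0.35 ± 0.05 SE, edgeR adjusted p = 3.4e-05).

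These 4 kinases went in opposite directions, and the make-up of the family shifted. Per length, Pdk1 made up 66.7% ± 1.03 (SD, n = 2) in Undiff and 29.8% ± 0.132 in Day4, and Pdk2 made up 2.65% ± 0.0451 and 26.2% ± 0.165. Pdk3 became the leading kinase per length, with 25.5% ± 0.737 in Undiff and 43.2% ± 0.188 in Day4, and Pdk4 had 5.22% ± 0.334 and 0.837% ± 0.154. With the longest transcript as length, Pdk3 had 38.8% and Pdk1 33.1% in Day4. In raw counts, without a length, Pdk1 still led in Day4, with 54.1% beside 25.8% for Pdk3. Each shift had an exact two-sided permutation p of 0.333, the smallest possible. The summed level of the kinases was 462.3 CPM ± 36.8 in Undiff and 244.3 CPM ± 1.81 in Day4. Their substrate moved the same way: Pdha1, the E1 alpha subunit, had 7162 and 7415 normalized counts in Undiff and 4612 and 4789 in Day4 (log2 fold change -0.63 ± 0.04 SE, edgeR adjusted p = 1.5e-08), and Pdhb, the E1 beta subunit, had 6821 and 6795 in Undiff and 3817 and 3703 in Day4 (log2 fold change -0.86 ± 0.04 SE, edgeR adjusted p = 4.8e-10).

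Hif1a encodes the oxygen-regulated subunit of the factor that induces many of these genes (chr12:73901375-73947530, plus strand). It had 5925 and 6480.0 normalized counts in Undiff and 9573 and 9849 in Day4. Its transcript was higher in both Day4 libraries, by 1.57-fold (log2 fold change 0.65 ± 0.05 SE, edgeR adjusted p = 3e-08), while most of the pathway was lower. HIF1A is controlled mainly through the stability of the protein, which was not measured here.

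Genes next to the pathway were counted in the same fit. Their lists were drawn up by function and are described by counts and medians only, to be read beside the background of 22.2% of all genes higher and 20.6% lower. Among 21 other glycolysis isoenzymes and transporters, 6 were higher and 6 lower, with a median log2 fold change of -0.34. The highest were Slc2a13, a myo-inositol transporter, and Slc2a9, a urate transporter. Each had 2 counts in either Undiff library, and they were at least 67.1-fold and at least 9.09-fold higher in Day4, computed against 3 counts per library. The lowest were Ldhc, the testis lactate dehydrogenase, at least 44.4-fold lower on the same basis, and Emb, an ancillary protein of monocarboxylate transporters, with 10404 and 9971 normalized counts in Undiff and 625 and 669 in Day4 (log2 fold change -3.97 ± 0.06 SE, edgeR adjusted p = 2.4e-15).

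Of 20 genes of gluconeogenesis and glycogen metabolism, 6 were higher and 2 lower, and the median log2 fold change of 0.55 had the opposite sign to that of the glycolysis genes. Pygb, the brain glycogen phosphorylase, had the highest value (1.93 ± 0.05 SE, edgeR adjusted p = 9.8e-13), followed by Gbe1, the glycogen branching enzyme (1.72 ± 0.08 SE, edgeR adjusted p = 2.9e-10). The other 4, named after their values were seen, were Ugp2, Gyg, Pgm2 and Gys1, with log2 fold changes of 1.67, 1.60, 1.45 and 1.28. Of these, Ugp2, Gyg and Gys1 act in the synthesis of glycogen. Pgm1, in the same list, did not pass the test (log2 fold change 0.06 ± 0.06 SE, edgeR adjusted p = 0.34). The authors counted genes with a UCSC annotation of mm10. Whether the symbols Pgm1 and Pgm2 name the same genes there as in GENCODE vM21 was not tested. Neither is therefore placed in the synthesis of glycogen here. The 2 that fell were both fructose-1,6-bisphosphatases, which oppose phosphofructokinase 1. Fbp2 had 66 and 50 raw counts in Undiff and 1 and 1 in Day4, at least 23.7-fold lower against the floor, and Fbp1 had a log2 fold change of -1.12 ± 0.43 (SE, edgeR adjusted p = 0.032).

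The pentose phosphate pathway, which branches off at glucose 6-phosphate, had a median log2 fold change of -0.65 over 10 genes, of which 2 were DEGs, both lower in Day4. These were Prps1, which makes phosphoribosyl pyrophosphate (-2.21 ± 0.05 SE, edgeR adjusted p = 7.7e-14), and Taldo1, transaldolase (-1.11 ± 0.04 SE, edgeR adjusted p = 3.5e-11). Of 8 genes of pyruvate entry and the rest of the dehydrogenase complex, 1 was a DEG: Mpc2, a subunit of the mitochondrial pyruvate carrier, was higher in Day4 (log2 fold change 1.58 ± 0.08 SE, edgeR adjusted p = 3.8e-10). Among 17 genes of the tricarboxylic acid cycle, Idh2 was higher (1.37 ± 0.05 SE, edgeR adjusted p = 2.9e-11) and Idh3a lower (-1.69 ± 0.04 SE, edgeR adjusted p = 7.3e-13), and the median was -0.20.

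**Figure D4:**
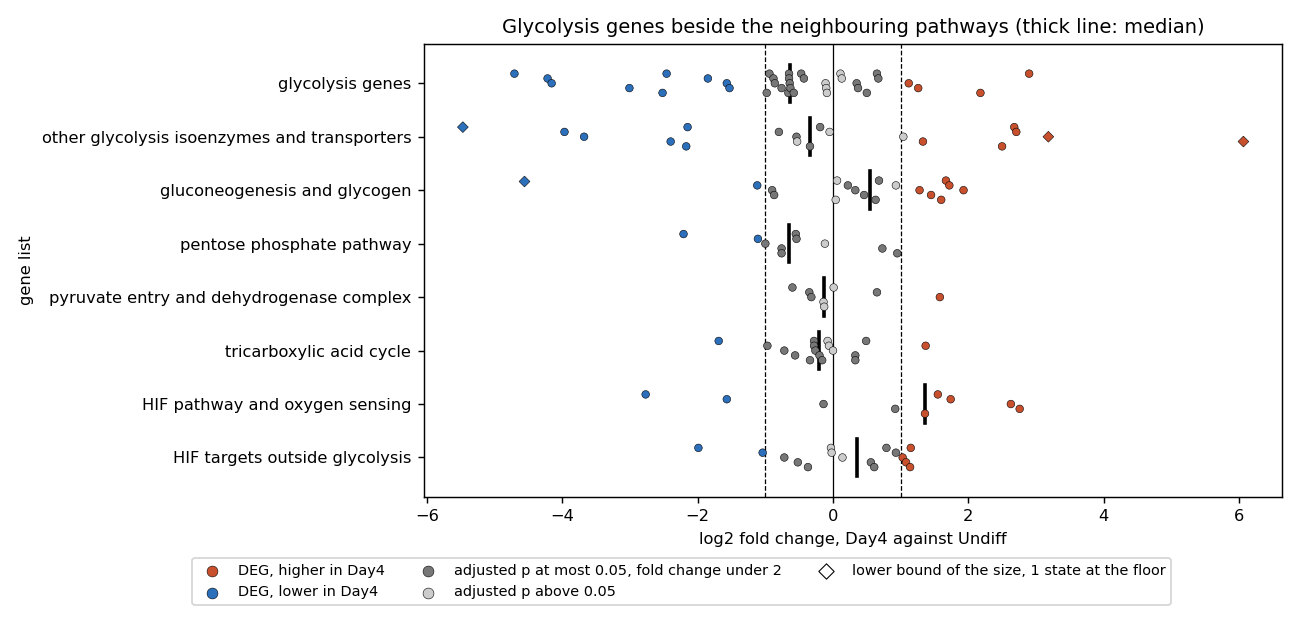
Log2 fold change of Day4 against Undiff (horizontal axis) for the genes of 8 lists that average at least 5 normalized counts, with 1 point per gene; the thick line is the median of a list, dashed lines mark a fold change of 2, and diamonds are genes at the floor in 1 state, drawn at the lower bound of their change. The median is -0.63 for the glycolysis genes and 0.55 for gluconeogenesis and glycogen.

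Markers of other cell types that Day4 could hold were also counted. Of 6 endothelial genes, 4 were higher and 2 lower, with a summed level of 169 to 171 CPM in Undiff and 305 to 311 CPM in Day4. Pecam1 was the highest of them in Undiff and Kdr in Day4, and Emcn was at the floor in Undiff. Of 8 visceral endoderm and hepatocyte genes, 5 were higher in Day4, and the sum was 4.70 to 4.73 CPM in Undiff and 15.1 to 15.7 CPM in Day4. Apob led that list in Undiff and Apoa1 in Day4, while Alb was at the floor in all libraries and Afp in Undiff. Of 8 neuronal and neural progenitor genes, 2 were higher and 4 lower, with a sum of 354 to 362 CPM in Undiff and 171 to 183 CPM in Day4. Stmn2 led in Undiff and Nes in Day4, and Dcx was at the floor in Undiff. Of the red blood cell list, 5 of 8 were higher in Day4. The part of these cell types in the levels of the glycolysis genes was not tested.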

How the data were processed

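Reads were trimmed by the authors with cutadapt, aligned to mm10 with STAR 2.4.2a and counted uniquely aligned fragments per gene with HTSeq. The deposited values are raw counts, whole numbers for each gene symbol, in 4 libraries of 32099074 to 47730944 counts on genes. Fragments assigned to no gene or to several genes stayed out of the library sizes. According to the study's methods the libraries were made with a poly(A)-selecting TruSeq kit, and the labels list in addition a stranded kit that depletes ribosomal RNA.

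The condition of each library was taken from its title. TMM-normalized counts were tested by the quasi-likelihood test of edgeR 4.0.16 (glmQLFit, glmQLFTest, R 4.3.3) over all 19891 genes with a count, with Benjamini-Hochberg adjustment over all of them. As in the study, a DEG needed an adjusted p no higher than 0.05, a log2 fold change of 1 or more in size and an average of 5 normalized counts. The common dispersion was 0.00134. Standard errors are the log2 fold change over the square root of F. A gene at 3 counts or fewer was at the floor, which covers counting error only. Shares used the union of exons in GENCODE vM21. Named genes were the DEGs, the leading isoenzyme of each step, and in other lists the DEGs with the 2 highest and 2 lowest changes, of which 1 is not reported here. The 38 genes, the lists and the tests were chosen with earlier results of these data known. The methods call the replicates distinct samples; p-values measure the spread between 2 libraries per state.

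The alternatives were DESeq2 1.42.0 with and without shrinkage, its size factors or library totals as scaling, filterByExpr, a replicate block, thinning to the smallest total, a lower minimum fold change, other gene lengths, leaving out each library, and, added after seeing the data, the older quasi-likelihood fit of edgeR and the longest protein-coding transcript as length.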

Additional observations from a re-analysis of the deposited data

How the results depend on the processing

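The counts of DEGs depended mainly on the minimum fold change. A minimum log2 fold change of 0.5 gave 27 DEGs, 7 higher and 20 lower, in place of 13, 4 and 9. The other scalings, filters and tools gave 13 or 14 DEGs. Leaving out each library in turn gave 12 to 14 DEGs, 3 to 4 higher and 8 to 11 lower, and 30 to 32 genes at an adjusted p of at most 0.05. The lone library left in a state was assumed to vary like the other state. Hk3 lost its call with DESeq2, thinning, and without Undiff replicate 1 or Day4 replicate 1, and Pfkfb3 without Undiff replicate 2. Tpi1 lost its adjusted p with DESeq2 and thinning. With library totals as scaling, Hk1 and Pfkfb2 passed instead (edgeR adjusted p = 0.01 and 0.019). The genes at an adjusted p of at most 0.05 numbered 33 with library totals and 29 with thinning, beside 31 with TMM. Pgk1 lay at the limit of the fold change, and Pkm passed this limit without Undiff replicate 2. Of 432 log2 fold changes of single genes, 1 turned: Eno3, at -0.09, ranged from -0.25 to 0.02 when single libraries were left out and was 0.02 without Day4 replicate 1. For Pgam1 the shift in share ranged from -0.193 to 0.367 percentage points and turned to -0.193 without Undiff replicate 2 and to -0.133 without Day4 replicate 1. The log2 ratio of the summed hexokinases was -1.30 with library totals and -1.40 with DESeq2 size factors (-1.37 with TMM), and that of the E1 subunits -0.67 and -0.77 (-0.74). The cause of these shifts was not tested.

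The states share replicate numbers, and the deviations of same-numbered libraries correlated with r = -0.01 across 16472 genes. With 2 libraries per state, this cannot show whether same-numbered libraries were handled together. With the replicate block, 13 genes were DEGs, 4 higher and 9 lower, and 32 had an adjusted p of at most 0.05. Depth limits Hk3 and Pklr, which have few counts, and an exact permutation test of 2 libraries against 2 cannot go below 0.333.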

Other observations

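Genes that control glucose use or respond to oxygen were counted by the same thresholds, under which 22.2% of all genes were higher and 20.6% lower in Day4. Of 9 genes of the HIF pathway and oxygen sensing, 5 were higher and 2 lower in Day4 (77.8%), with a median log2 fold change of 1.36. Arnt2, a partner of HIF alpha subunits, had 453 and 413 normalized counts in Undiff and 2913 and 2955 in Day4 (log2 fold change 2.76 ± 0.06 SE, edgeR adjusted p = 2.2e-13). Egln1, the main oxygen-sensing prolyl hydroxylase, had 1492 and 1188 in Undiff and 8370.0 and 8245 in Day4 (2.63 ± 0.08 SE, edgeR adjusted p = 1.7e-12). The 2 that fell were Epas1, which encodes HIF2 alpha (-2.77 ± 0.10 SE, edgeR adjusted p = 1.5e-11), and Egln3 (-1.57 ± 0.13 SE, edgeR adjusted p = 7e-08). Among 16 HIF targets outside glycolysis, 4 were higher and 2 lower, which at 37.5% is below the 42.8% of all genes, and their median was 0.35. Vegfa (1.15 ± 0.08 SE, edgeR adjusted p = 7.6e-09) and P4ha1 (1.14 ± 0.09 SE, edgeR adjusted p = 5.6e-08) were the highest DEGs, and Car9 (-1.99 ± 0.31 SE, edgeR adjusted p = 5e-05) and Ak4 (-1.04 ± 0.05 SE, edgeR adjusted p = 2.5e-10) the lowest.

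Of 12 transcriptional and other regulators of glucose metabolism, 8 were lower and 1 higher, with a median log2 fold change of -1.40. Ppargc1a, a coactivator of mitochondrial genes, had 0 counts in both Undiff libraries and 237 and 354 raw counts in Day4, at least 77.3-fold higher against 3 counts per library. Esrrb, a nuclear receptor of pluripotent cells, was among those that fell (-7.09 ± 0.07 SE, edgeR adjusted p = 2.4e-16), and it is also in the pluripotency list. The difference between the Undiff replicates seen in the glycolysis genes was also seen in some of the other lists, but not in all. Replicate 1 was above replicate 2 for 14 of the 16 HIF targets, with a median log2 ratio of 0.32, and for 15 of 18 genes of gluconeogenesis and glycogen, with a median of 0.18. In the pentose phosphate pathway it was above for 5 of 10 genes, with a median of 0.00. Replicate 1 was above for 8 of 9 genes of the HIF pathway and oxygen sensing (median 0.07). It was above for 10 of 19 other glycolysis isoenzymes and transporters and 11 of 17 tricarboxylic acid cycle genes (median 0.01 each). For pyruvate entry it was above for 3 of 8 (median -0.03), and for the regulators of glucose metabolism for 2 of 12 (median -0.07).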
